A study of Mus musculus with 8 samples.

Results

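Core macrophage identity genes are transcripts by which macrophages are told from other cells of a tissue, and 10 of them were described here in macrophages of the mouse heart. The genes were taken by name from the 24516 genes of the deposited count table, and each of the 10 was found once: Csf1r, Cx3cr1, P2ry6, Gpr34, Adgre1, Trem2, Tyrobp, Ptprc, Lyz2 and Aif1. RNA came from macrophages sorted out of C57BL/6 mouse hearts on postnatal day 28. Endocardially derived macrophages (EcTM) gave 4 libraries, and tissue macrophages outside that lineage (non-EcTM) gave another 4. Mice of both groups carried Cre recombinase in 1 copy of Nfatc1 (Nfatc1Cre/+) and 1 copy of a Tomato reporter at Rosa26. Nfatc1 encodes a transcription factor of the endocardium, the inner lining of the heart, and the reporter marks any cell whose ancestors used that gene, so a cell without colour may still come from a lineage in which Cre did not act. The sources used here do not give the markers of the sort, and members that encode surface proteins, such as Ptprc, Adgre1 and Cx3cr1, are common choices for such gates.

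Each library is named by a letter, E for EcTM or N for non-EcTM, and a number, and the 4 numbers recur in both groups: E591 with N591, E592 with N592, E604 with N604 and E606 with N606. Libraries with the same number were treated as a pair, and the 4 values of a group are given in that order throughout. Whether a number is an animal, a litter or a pool is not stated, so the p-values measure the spread between these libraries. Totals were 2152425 to 2576407 counts in EcTM and 2281657 to 2937464 in non-EcTM. E592 and N592 had 260 and 307 counts of the Y-linked gene Ddx3y and 1 and 8 of Xist, whereas the other libraries had 1 to 7 of Ddx3y and 935 to 1682 of Xist.

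Tissue macrophages live on signals through the receptor CSF1R, sense their surroundings through receptors for chemokines, nucleotides and lipids, and clear debris with lysozyme and other enzymes. TREM2 and its adaptor TYROBP pass signals from lipids and dying cells to the kinase SYK. Fractalkine receptor CX3CR1, P2RY6 and GPR34 are also known from microglia, the macrophages of the brain. CD45, encoded by Ptprc, is a phosphatase on all nucleated blood cells.

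The members took 1.46% ± 0.0349 (SD, n = 4) of all counts in EcTM and 1.44% ± 0.0158 in non-EcTM. Lyz2 and Csf1r made up most of that, at 5854 ± 462 and 5967 ± 218 CPM in EcTM, where CPM is the count per 1000000 counts of a library whose size was scaled by TMM. Of the 10 members 9 had enough counts to be tested, and 0 of the 9 differed between EcTM and non-EcTM at an adjusted p under 0.05 in the paired edgeR quasi-likelihood test over 7667 genes. The background was 1 called gene, or 0.013% of all tested. DESeq2 and limma-voom, fitted to the same pairs, called 0 members as well. DESeq2 gave an adjusted p to 8 of the 9, not to Ptprc, and called 0.977% of 2660 genes. With limma-voom 0.248% of 7667 genes were called. Both tools gave 1 member an unadjusted p under 0.05, as edgeR did. In 5 of the 9 the 95% interval of the ratio lay within 1.25-fold in either direction. Between the pair numbers 2 of the 9 passed in edgeR, Cx3cr1 and Lyz2, beside 3.04% of all tested genes. Neither passed without E604 and N604.

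**Figure D1:**
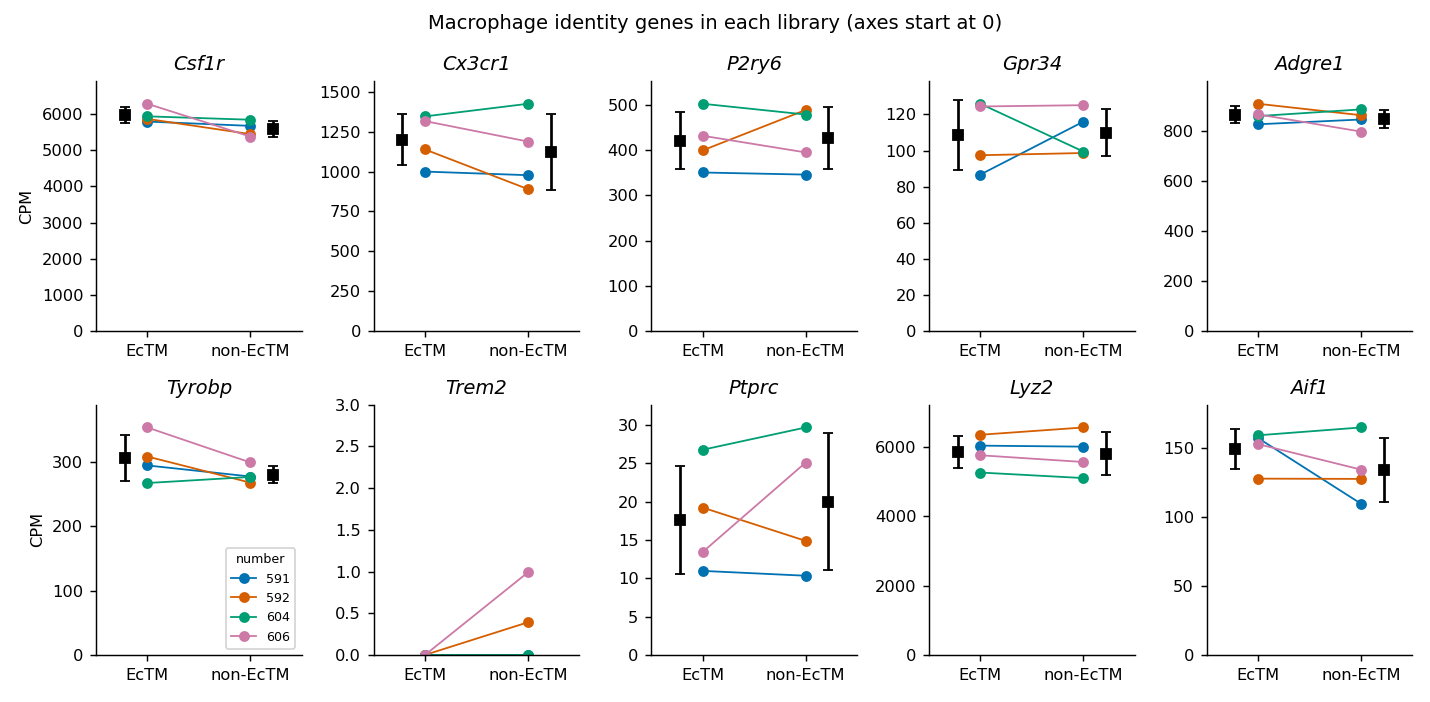
Level of each member (CPM, vertical axis from 0, one scale a gene) in EcTM and non-EcTM libraries, with a line for each pair. Black squares and bars are means ± SD of 4 libraries, left out for Trem2. Lines of Lyz2 are nearly flat between 5104 and 6564 CPM. The steepest line of Csf1r joins E606 at 6281 CPM and N606 at 5375 CPM, and Trem2 has counts in 2 non-EcTM libraries only.

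Csf1r (Entrez gene 12978, chromosome 18, 61105572 to 61131139 in GRCm38) encodes the receptor for the growth factors CSF1 and IL-34. Its counts were 12153, 13123, 13530 and 15907 in EcTM, and the non-EcTM libraries held 14279, 13908, 13390 and 16284. Scaled for depth these were 5790, 5863, 5934 and 6281 CPM for the EcTM libraries against 5671, 5443, 5840 and 5375 CPM for the others. E606 was the highest library and N606 the lowest, and the groups overlapped because N604 stood above E591. The paired log2 fold change was 0.10 ± 0.04 (SE), a ratio of 1.07 with a 95% interval of 1.01 to 1.14. Csf1r was the 1 member higher in EcTM in 4 of 4 pairs, a pattern that 7.26% of tested genes had. It was also the 1 member with an unadjusted p under 0.05 in edgeR (0.0344), where 5.4% of tested genes had one. The adjusted p was 0.905 in edgeR, 0.477 in DESeq2 and 0.0536 in limma-voom, so the difference passed in none of the 3. Without E606 and N606 the edgeR log2 fold change fell to 0.05, with an adjusted p of 0.988.

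Cx3cr1 (Entrez gene 13051, chromosome 9, 120048683 to 120068296) encodes the receptor for the chemokine fractalkine. EcTM libraries held 999, 1138, 1345 and 1316 CPM of it, and non-EcTM libraries 977, 890, 1424 and 1188 CPM. E604 and E606 lay above E591 and E592, N604 and N606 lay above N591 and N592, and the groups overlapped widely. The paired log2 fold change between groups was 0.11 ± 0.07, a ratio of 1.08 (95% interval 0.975 to 1.20), with an adjusted p of 0.946.

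The nucleotide receptor gene P2ry6 (Entrez gene 233571, chromosome 7, 100937630 to 100975498), whose product responds to UDP and can start phagocytosis, had a ratio of 0.988 (0.864 to 1.13) and an adjusted p of 0.998. Its levels were 350, 399, 502 and 431 CPM for EcTM, beside 346, 488, 478 and 394 CPM for non-EcTM. E591 and N591 were the lowest libraries, and N592 lay above E592, unlike in the other 3 pairs.

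Gpr34 (Entrez gene 23890, chromosome X, 13622650 to 13640859), which encodes a receptor for the lysophospholipid lysophosphatidylserine, stood at 86.7, 97.4, 126 and 124 CPM for EcTM libraries and at 116, 98.6, 99.4 and 125 CPM for their partners. Its ratio was 0.983 (0.779 to 1.24). E591 was the lowest library and E604 the highest, and the pairs of E591 and E604 went in opposite directions, with log2 differences of -0.42 and 0.34.

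The adhesion receptor gene Adgre1 (Entrez gene 13733, chromosome 17, 57358581 to 57483529) encodes F4/80, the classical surface antigen of mouse macrophages. It ranged from 826 to 907 CPM over EcTM libraries and from 796 to 885 CPM over the others. Means were 864 ± 33.6 and 847 ± 37.5 CPM (SD, n = 4), and the ratio was 1.02 (0.921 to 1.13). The difference was smaller than the SD of either group, and 2 of 4 pairs had the higher value in EcTM.

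The signalling pair of TREM2 and TYROBP was unequally counted. Tyrobp (Entrez gene 22177, chromosome 7, 30413782 to 30417582), whose protein carries an immunoreceptor tyrosine-based activation motif, had 294, 308, 267 and 353 CPM in the EcTM libraries, while the non-EcTM ones had 277, 268, 277 and 299 CPM. E606 was the highest and E604 the lowest of the 8 libraries. The ratio of 1.09 had an interval of 0.940 to 1.26 and an adjusted p of 0.964. Tyrobp was higher in EcTM in 3 of 4 pairs.

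Trem2 (Entrez gene 83433, chromosome 17, 48346401 to 48352276) had 0 counts in each of the 4 EcTM libraries, and 1 count in N592, 3 in N606 and 0 in N591 and N604. A count of 0 allows a level of 3 counts, which was 1.02 to 1.39 CPM in a single library of these totals. All 8 libraries were at or under 3 counts, so no ratio is given, and Trem2 did not enter the test. These limits cover counting error alone.

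Ptprc (Entrez gene 19264, chromosome 1, 138062859 to 138175756) was also sparse. It had 23, 43, 61 and 34 counts in EcTM, and the non-EcTM libraries held 26, 38, 68 and 76. Its mean was 17.6 ± 7.02 CPM in the former group, beside 19.99 ± 8.93 CPM in the latter. E591 and N591 were the 2 lowest libraries. The ratio was 0.897 with an interval of 0.511 to 1.57, the widest of the 9 members.

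Low counts of Trem2 and Ptprc came with a property of the count table. For 21265 genes the curated RefSeq transcripts were matched to exons of the GENCODE M21 annotation, and the share of a gene's exon length that lies in 1 curated transcript only was taken. That share was 12.4% for the 2 transcripts of Trem2 and 8.38% for the 3 of Ptprc. Of the 1872 genes with a share of 5% to 20%, 3.63% had at least 1000 counts over the 8 libraries and 43.1% had none. Of the 15672 genes with a share above 99%, 16.9% had at least 1000 counts and 36.4% had none. The steps were uneven. With a share up to 5%, of 20% to 50% and of 50% to 99%, 62.7%, 42.3% and 31.4% of genes had no count. At least 1000 counts were held by 3.75%, 3.63% and 7.37% of those classes. Ptprc, at 369 counts, lay above the 90th percentile of its class, 268 counts. Adgre1 had many counts despite a small share, with 3.52% over 2 matched transcripts and 16683 counts. Aif1 has 3 curated transcripts too, of which 1 was matched, so its share says little. The sources used here do not give the transcripts the authors counted on.

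Among 97 genes of the macrophage lists used here, members included, 0 of the 44 with 1 curated transcript in RefSeq had no count at all, and their median total was 5813 counts. Of the 53 with several curated transcripts 18 were at 0 in every library, and the median was 48. Ctss and Itgam, which encode cathepsin S and the integrin chain CD11b, were among those at 0. The part of overlapping transcripts in these counts was not tested. Levels of Trem2, Ptprc, Aif1 and Adgre1 are for that reason compared here between libraries and not with other genes.

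**Figure D2:**
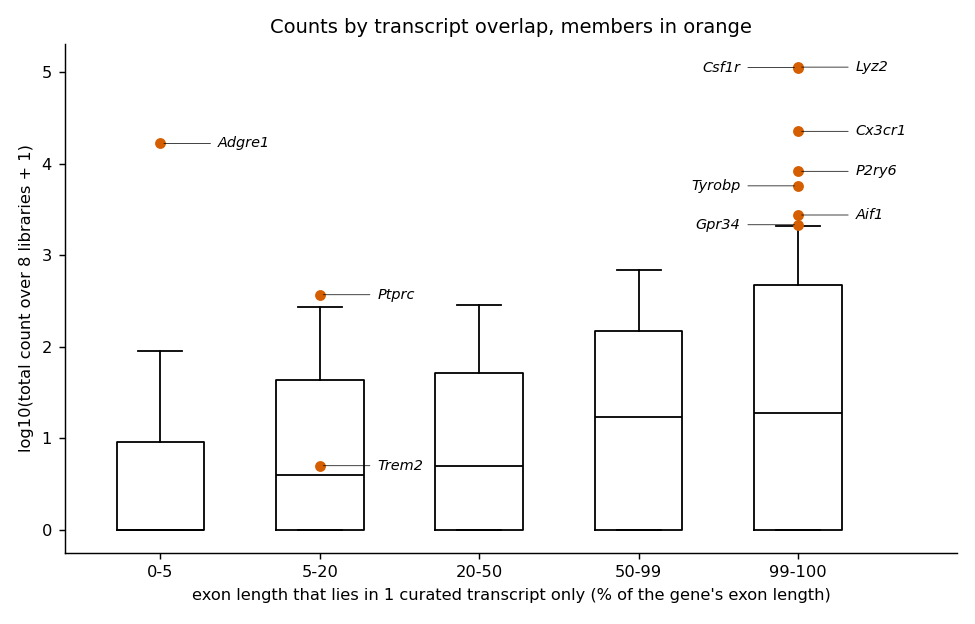
Total count over 8 libraries (log10 of count + 1, vertical axis) of 21265 genes by the share of exon length that lies in 1 curated transcript only (horizontal axis, percent), with boxes for quartiles, whiskers for the 10th and 90th percentiles and the members in orange. Trem2 lies near the median of its class and Ptprc above the whisker of the same class, and 7 members lie in the highest class with 2153 to 113959 counts.

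Lyz2 (Entrez gene 17105, chromosome 10, 117277541 to 117282272), the lysozyme gene of macrophages and neutrophils, had 12677, 14220, 12000 and 14591 counts in EcTM and 15134, 16770, 11701 and 16866 in non-EcTM. These were 6039, 6353, 5263 and 5761 CPM, against 6010, 6564, 5104 and 5567 CPM. Both libraries of a pair were within 0.05 of each other on the log2 scale. E592 and N592 were the highest of their groups and E604 and N604 the lowest. Between groups the log2 fold change was 0.01 ± 0.04, a ratio of 1.01 with an interval of 0.953 to 1.07.

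A near-identical neighbour, Lyz1 (Entrez gene 17110, chromosome 10, 117287795 to 117292868), is the lysozyme gene of Paneth cells in the gut. Its counts were 0.696% to 1.36% of those of Lyz2 in the 8 libraries. Their coding sequences have the same length of 444 bases and differ at 22 of them, an identity of 95.05%. The first 90 coding bases are shown as an example of where reads of the 2 genes can be told apart. Differences are denser there than over the whole coding sequence, and the 7 bases that differ are in capitals.
Lyz2: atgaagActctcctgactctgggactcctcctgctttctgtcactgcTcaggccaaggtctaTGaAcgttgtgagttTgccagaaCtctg
Lyz1: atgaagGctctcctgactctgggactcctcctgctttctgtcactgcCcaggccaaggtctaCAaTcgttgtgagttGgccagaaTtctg
Of the 1267 windows of 50 bases in the Lyz2 transcript 195, or 15.4%, occur unchanged in that of Lyz1. The sources used here do not say how reads that match both genes were counted, so the counts of both are uncertain where they are alike. Lyz1 had means of 62.2 ± 14.2 CPM for EcTM and 57.1 ± 11.8 CPM for the other group, with an adjusted p of 0.990 in edgeR.

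Close to the start site the sequence before both lysozyme genes is also much alike. RefSeq promoter entries (GRCm38.p6) were used for 5 of the 10 members, Cx3cr1, Lyz2, Aif1, Trem2 and Ptprc. No entry was used for Csf1r, P2ry6, Gpr34, Adgre1 or Tyrobp, so the search described next did not cover these members. The motif AGGAAGT, a form of the site bound by ETS-family factors such as PU.1, was searched on both strands in the 250 bases before each start. It was chosen after the sequences had been seen. Lyz2 and Ptprc held it, as did Lyz1, and so did 7.69% of all 32851 promoter entries. The 120 bases before the start are shown for the member with the most counts, its neighbour and the member with the fewest counts among those tested, with the motif in capitals (in either orientation) and all on the minus strand: Lyz2 at chr10:117282273-117282392, Lyz1 at chr10:117292869-117292988 and Ptprc, for the first of its 2 start sites, at chr1:138175306-138175425.
Lyz2: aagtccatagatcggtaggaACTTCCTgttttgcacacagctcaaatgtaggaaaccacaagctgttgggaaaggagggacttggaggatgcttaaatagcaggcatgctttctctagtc
Lyz1: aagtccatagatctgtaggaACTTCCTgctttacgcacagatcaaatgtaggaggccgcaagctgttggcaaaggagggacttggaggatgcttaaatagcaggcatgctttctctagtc
Ptprc: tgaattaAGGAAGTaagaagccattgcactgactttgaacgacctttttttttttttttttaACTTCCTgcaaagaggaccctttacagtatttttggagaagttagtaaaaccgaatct
Compared base by base without gaps, Lyz2 and Lyz1 shared 111 of these 120 bases, 92.5%, and 60.8% of the 250 bases searched. Without gaps, unlike sequence further out cannot be told from sequence shifted by an insertion or deletion. The motif started 100 bases before the start in both, and Lyz2 had 97.8 times the CPM of Lyz1. Ptprc held the motif at 113 and 58 bases before its start. A match is a description of letters and not a site of binding.

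Aif1 (Entrez gene 11629, chromosome 17, 35170986 to 35176083) encodes IBA1, a calcium-binding protein of membrane ruffles that is widely stained to find macrophages. EcTM libraries had 157, 128, 159 and 153 CPM of it, beside 110, 128, 165 and 134 CPM in non-EcTM. E591 lay above N591, and the other libraries of both groups overlapped. The log2 fold change was 0.16 ± 0.14, and the ratio of 1.12 had an interval of 0.913 to 1.37. E591 exceeded N591 by 0.52 on the log2 scale, and the other 3 pairs differed by 0.00, -0.05 and 0.18. Without E591 and N591 the log2 fold change was 0.05.

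Between groups, 6 of the 9 members had a log2 fold change above 0 and 3 below, with a median of 0.03 beside -0.01 over all tested genes. The median size without sign was 0.10 for the members and 0.20 for all tested genes. It was 0.07 for the 715 tested genes whose mean log2 CPM was 8 or more, a level that Aif1, Gpr34 and Ptprc did not reach. Being lower in EcTM in 4 of 4 pairs, as 6.93% of tested genes were, was seen for 0 members. In 0 of the 9 members did all libraries of one group lie above those of the other, which 2.7% of tested genes did. Because the cells were sequenced in bulk, fewer cells that carry a transcript and less of it in each cell cannot be told apart.

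**Figure D3:**
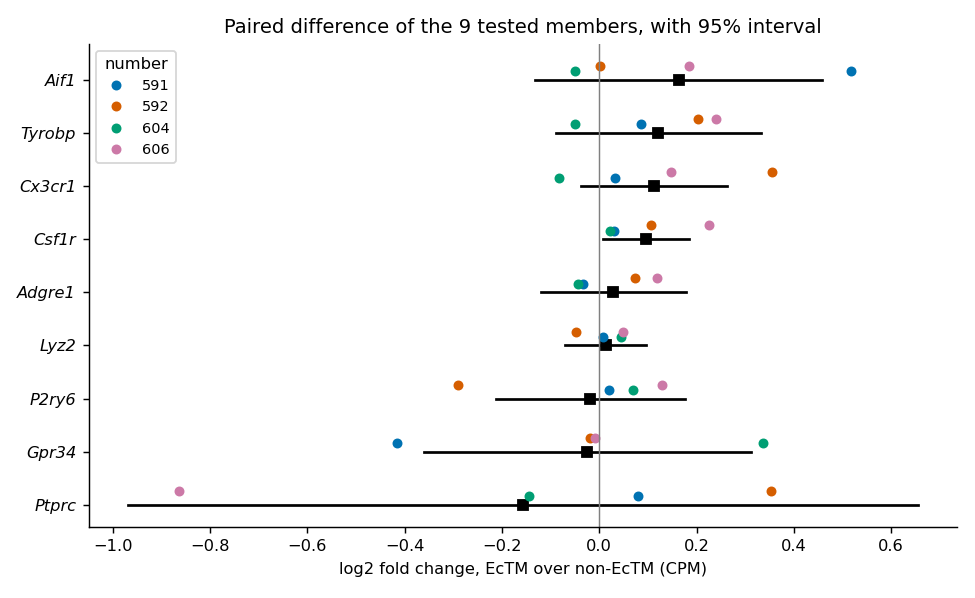
Paired log2 fold change of the 9 tested members (horizontal axis, EcTM over non-EcTM; black squares with 95% interval) and the log2 ratio of each pair (coloured points). Intervals are narrowest for Lyz2 and Csf1r and widest for Ptprc, and the points of every member but Csf1r fall on both sides of 0.

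Levels of different genes were set in order per kilobase of the longest curated transcript, over the 6 members with 1 curated transcript in RefSeq. Lyz2 was first at 4449 ± 351 CPM per kilobase in EcTM and 4416 ± 474 in non-EcTM, rank 2 of the 5073 tested genes with 1 curated transcript and a matched transcript length. Csf1r followed at 1542 ± 56.2 and 1442 ± 55.2, rank 17. Tyrobp stood at 542 ± 63.9 and 497 ± 23.6, Cx3cr1 at 320 ± 43.1 and 298 ± 63.5, P2ry6 at 216 ± 32.7 and 219 ± 35.1, and Gpr34 at 57.2 ± 10.3 and 57.8 ± 6.83 CPM per kilobase. These are ranks 73, 123, 167 and 754. Among neighbours in this order only the ranges of Cx3cr1 (237 to 379) and P2ry6 (178 to 258) met over the 8 libraries.

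Differences between pair numbers were tested in the same edgeR model, with the group as the other term, and 2 of the 9 members passed, Lyz2 at an adjusted p of 0.00551 and Cx3cr1 at 0.00644. The background was 233 of 7667 genes, or 3.04%. Taken as the geometric mean of a pair, Cx3cr1 was at 988, 1006, 1384 and 1250 CPM. On the same scale Lyz2 was at 6025, 6458, 5183 and 5663 CPM. The 2 pairs with more Cx3cr1 had less Lyz2, and Cx3cr1 was 1.40 times as high in its highest pair as in its lowest, while for Lyz2 that ratio was 1.25. P2ry6 had a ratio of 1.41 between its highest and lowest pairs and did not pass in edgeR, with an adjusted p of 0.175. It passed in DESeq2 at 0.0344, where 5.21% of genes did. Csf1r and Adgre1 varied least, by 1.04 and 1.07 times, with adjusted p-values of 0.958 and 0.954.

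**Figure D4:**
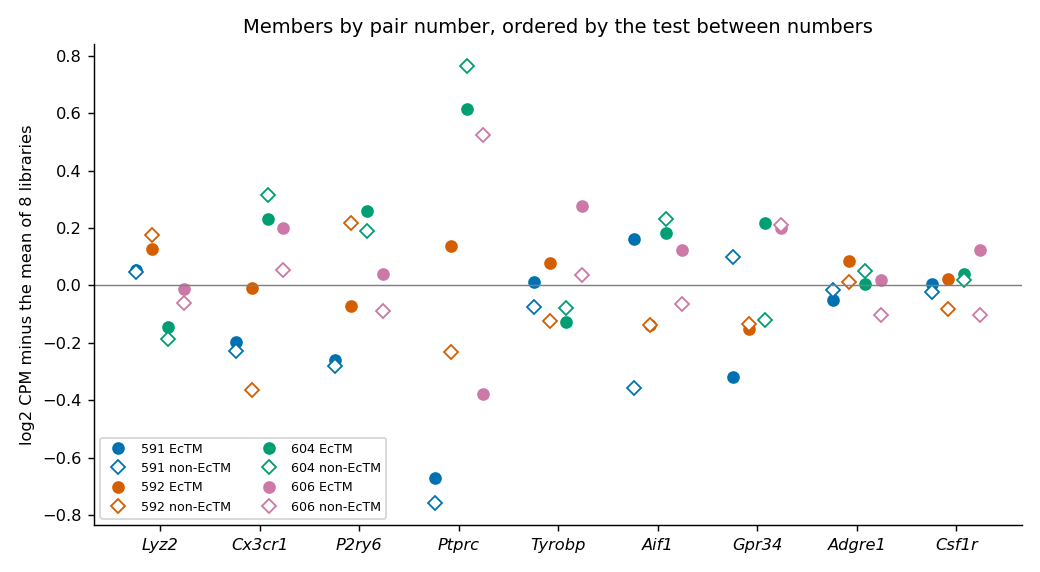
Deviation of each library from the mean of 8 libraries (log2 CPM, vertical axis) for the 9 tested members, with filled circles for EcTM, open diamonds for non-EcTM and a colour for each pair. Cx3cr1 lies higher in the pairs of E604 and E606 and Lyz2 higher in those of E591 and E592, while the highest pair of Csf1r is 1.04 times its lowest and that of Adgre1 1.07 times.

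Those differences rest on few pairs. Without E604 and N604 neither passed, with adjusted p-values of 0.135 for Cx3cr1 and 0.254 for Lyz2. Without E592 and N592, the pair with Y-linked transcripts, Cx3cr1 passed at 0.0216 and Lyz2 did not at 0.0772. Some markers of other cells passed the same test, which 3.04% of all tested genes passed. They were 4 of 5 tested endothelial, 2 of 3 fibroblast and 1 of 4 mural markers. The endothelial and fibroblast lists had their highest sums in N591, at 890 and 188 CPM. Within EcTM they were highest in E591, at 337 and 126 CPM. Of 2 monocyte markers 1 passed, Nr4a1, which macrophages also express, beside 0 of 7 cardiomyocyte and 0 of 2 dendritic cell markers. Outside the members, 2 of 12 tested macrophage genes, 2 of 6 genes shared with microglia and 1 of 10 leukocyte genes passed too. In the lists of CSF1 receptor, TYROBP, fractalkine and nucleotide receptor genes 0 passed. The part of other cells in the values of Cx3cr1 and Lyz2 was not tested.

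By likeness over the 8 libraries, measured by Pearson's r of log2 CPM among 2503 genes whose mean log2 CPM was 6 or more, the gene nearest to Lyz2 was the transcription factor gene Klf4 (r = 0.98). Klf4 had 2355, 2435, 1825 and 2104 CPM in EcTM libraries, with 2455, 2840, 1706 and 2009 CPM in their partners, again highest in E592 and N592 among the libraries of each group. The nearest to Cx3cr1 was Cenpe, a kinesin gene of mitosis (r = 0.92), at 31.7 to 122 CPM. Cenpe was at 103 to 122 CPM in E604, E606, N604 and N606 and at 31.7 to 53.6 CPM in the other 4. The nearest to Csf1r was Sdha (r = 0.93), to Tyrobp Tob2 (r = 0.94), to P2ry6 Fam76b (r = 0.95), to Gpr34 Rnf2 (r = 0.94), to Adgre1 Raver1 (r = 0.92), to Aif1 Mafk (r = 0.92) and to Ptprc Mdh2 (r = 0.94). These r are the highest of many over 8 libraries that fall into pairs, and are high by that choice.

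Partners and other genes of the members' pathways were held in 7 lists, and edgeR called 0 genes in either direction in each between groups. At an unadjusted p under 0.05, which 5.4% of all tested genes had, there were 2 of 8 tested genes in the CSF1 receptor list. There were also 3 of 12 among other macrophage genes, 1 of 10 among leukocyte genes and 2 of 6 in the microglia list. The other 3 lists had 0. In the CSF1 receptor list 8 of 15 genes were tested, with a median log2 fold change of -0.07. Socs3, a feedback inhibitor of cytokine receptors, had 0.16 ± 0.06 and an adjusted p of 0.778, and Pik3r1, a regulatory subunit of PI3-kinase, had 0.34 ± 0.16. Il34, the second CSF1R ligand, was at 0 in all libraries. Among 10 tested genes of TYROBP partners and ITAM signalling the median was -0.03. Syk had -0.18 ± 0.24 and the phospholipase gene Plcg2 0.11 ± 0.09. Of 3 tested genes of fractalkine signalling, the ligand gene Cx3cl1 had -0.37 ± 0.54 and the G protein gene Gnai2 0.05 ± 0.06.

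Of 9 tested nucleotide and lysophospholipid receptors and their partners, Gpr183, an oxysterol receptor gene, had the smallest unadjusted p, with 0.27 ± 0.14 and an adjusted p of 0.921. P2ry12, the ADP receptor gene of microglia, had 0.17 ± 0.18. In the list of genes shared with homeostatic microglia all 6 tested genes lay above 0, with a median of 0.15. Tmem119 had the largest value, 0.76 ± 0.26, from 36.1 ± 13.9 CPM in non-EcTM to 58.8 ± 8.51 in EcTM, with an adjusted p of 0.751, and N604 at 56.3 CPM lay within the EcTM range. Sall1 and Siglech were at 0 in all libraries, each with 3 curated transcripts.

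Among other macrophage genes 9 of 12 tested lay above 0, with a median of 0.06. Mpeg1, a pore-forming protein gene, had 0.28 ± 0.07 and an adjusted p of 0.413, with the higher value in EcTM in 4 of 4 pairs. Mpeg1 was among the genes of the list that DESeq2 and limma-voom called higher in EcTM, and Lgmn was among those of DESeq2. The lysosomal genes Lgmn at 0.17 ± 0.06 and Cd68 at 0.20 ± 0.11 were also higher in 4 of 4 pairs and did not pass in edgeR. Of 10 tested leukocyte genes Laptm5, which encodes a lysosomal membrane protein, had 0.19 ± 0.06 and an adjusted p of 0.608, and it was called by DESeq2 and limma-voom. Cd53, a tetraspanin gene, had -0.13 ± 0.12.

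The label of the cells was held against markers of other cell types. Summed over each list, the members reached 13905 to 15299 CPM and 15 other macrophage genes 15681 to 18384 CPM. Erythroid markers were at 0 in all libraries, and the neutrophil, B cell, T and NK cell, mast cell and dendritic cell lists reached at most 8.29, 6.71, 4.82, 0.476 and 23.7 CPM. For none of these lists does a low sum show that the cell type was absent, because expressed genes can be at 0 in this table. Neutrophils also express Lyz2. Their list stood at 0 to 1.43 CPM in EcTM and 2.74 to 8.29 CPM in non-EcTM, with 0 tested genes, and S100a9, Ly6g, Camp and Elane were at 0 throughout, in a table where macrophage genes such as Ctss and Itgam are at 0 too. Their part in the Lyz2 counts was not tested. The monocyte list reached 2439 CPM through Nr4a1, which macrophages also express, and without that gene 99.3 CPM. Nr4a1 had a log2 fold change of 0.22 ± 0.06 with an adjusted p of 0.434 in edgeR, and DESeq2 and limma-voom called it higher in EcTM. Ccr2, the other monocyte marker tested, had -0.56 ± 0.24, with 44.4 ± 15.6 CPM in EcTM libraries, 64.6 ± 23.6 CPM in the rest and an adjusted p of 0.897.

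Some transcripts of other heart cells were counted, and whether they came from such cells was not tested. Endothelial markers summed to 32.5 to 337 CPM in EcTM and 87.3 to 890 CPM in non-EcTM, with 4 of 10 at 0, among them Pecam1, and all 5 tested genes of that list lay below 0 with a median of -1.10. None of the 5 passed in edgeR, where 3 had an unadjusted p under 0.05, as did 5.4% of all tested genes. With limma-voom 1 passed, Ptprb. DESeq2 gave an adjusted p for 1 of them and did not call it. All 4 tested mural cell markers lay below 0 as well, with a median of -0.71, and edgeR called 0 of them, with 1 at an unadjusted p under 0.05. That gene, Mylk, had -0.91 ± 0.27 with an adjusted p of 0.608. DESeq2 gave none of the 4 an adjusted p, and limma-voom called 0. Of the mural list, 3 genes had an unadjusted p under 0.05 in DESeq2 and 3 in limma-voom. Mural cell markers summed to 71.9 to 96.2 and 76.7 to 263 CPM, cardiomyocyte markers at 78.1 to 144 and 93.5 to 175 CPM and fibroblast markers at 24.5 to 126 and 22.3 to 188 CPM, in EcTM and non-EcTM. In N591, the library with the most endothelial and fibroblast transcripts, Aif1, P2ry6 and Ptprc were at their lowest of the 8 libraries, at 110, 346 and 10.3 CPM. The other 6 tested members lay within the range of the other libraries there, among them Csf1r at 5671, Cx3cr1 at 977 and Lyz2 at 6010 CPM. The part of other heart cells in the ratios between groups was not tested.

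**Figure D5:**
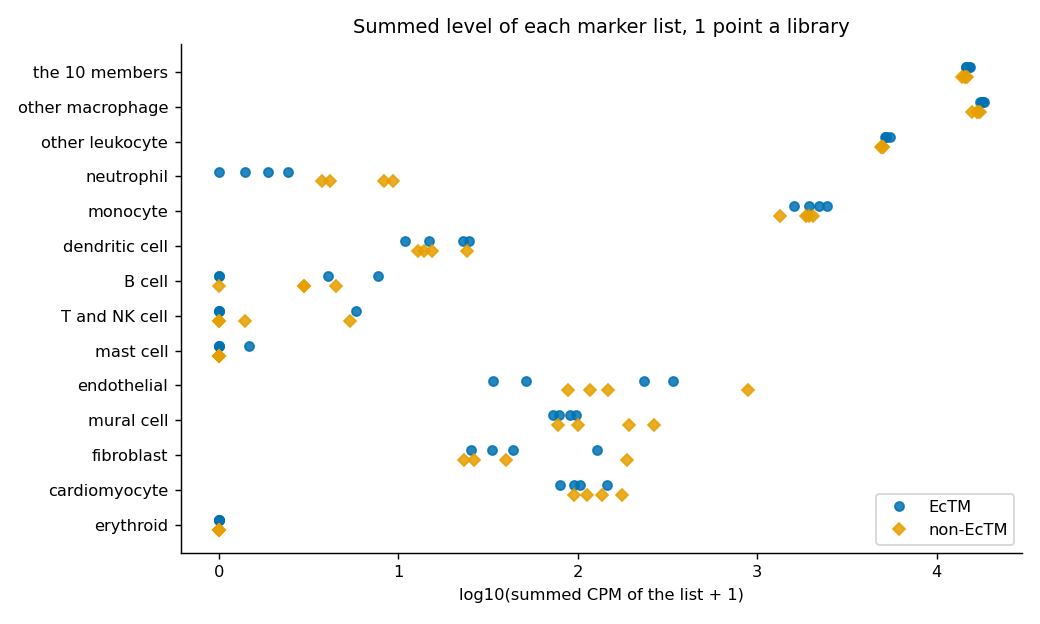
Summed CPM of each fixed marker list (log10 of CPM + 1, horizontal axis) in each library, with circles for EcTM and diamonds for non-EcTM. The members and the other macrophage genes lie at 13905 CPM or more in all 8 libraries, and lists of other cell types, apart from the monocyte list with Nr4a1, reach at most 890 CPM. A low sum does not show that a cell type was absent.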

How the data were processed

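Total RNA of sorted cells was made into stranded total RNA libraries for very small inputs, per the labels. Per the submitters' processing notes, bcl2fastq 2.17, TopHat, DESeq2, R 3.2 and mm10 were used. What program, annotation and strand setting were used for counting is not given in the sources used here. Raw counts of 24516 genes were deposited by the authors with a second set of columns headed CPM whose values are on a log2 scale. The deposited log2 values were used only as an alternative.

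Genes passing edgeR's filterByExpr (7667, with 99.3% of counts) entered edgeR 4.0.16 (R 4.3.3): TMM factors, a model of group plus number as the replicate block, quasi-likelihood F-tests, Benjamini-Hochberg adjustment, threshold 0.05. Intervals are 95% and follow from the F statistic. Genes with 0 counts get a limit of 3 counts. DESeq2 1.42.0 and limma 3.58.1 were alternatives. Log2 CPM use a prior count of 2. Same-numbered libraries had correlations of their deviations from the group means of 0.12 to 0.19, and other pairs -0.13 to 0.05, over genes. Coordinates come from RefSeq (24447 genes matched by Entrez number) and lengths from GENCODE M21, both on GRCm38, which mm10 names. Figures used matplotlib 3.10.9. The fit was also run on simulated counts with the same dispersion for all genes, which cannot show how well the intervals hold for single members.

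Members and lists were chosen with earlier results of these data known. Named genes are the members, up to 4 tested genes of each list with the smallest unadjusted p, the nearest gene of each member, Lyz1 and sex-linked genes. Genes at 0 and marker sums were chosen after their values were seen. Some genes that the rule names are not reported here. Of the listed symbols 2 were not matched.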

Additional observations from a re-analysis of the deposited data

Results flagged for a closer look

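The spread within each group of 4 libraries was examined for 10 genes (the 9 tested members and Lyz1) and 11 marker lists of other cells, 42 groups in all. None of the members had a library that stood apart. In 5 groups 1 library lay far from the other 3, where chance gives about 1 in 20 groups, a rate that does not hold for lists with most libraries at 0. In non-EcTM, N591 had 890 CPM of endothelial markers beside 87.3 to 147 CPM in the others, and 188 CPM of fibroblast markers beside 22.3 to 38.9 CPM. T and NK cell markers summed to 4.82 CPM in E604 beside 0 in the other EcTM libraries, and to 4.36 CPM in N604 beside 0 to 0.397 CPM. Mast cell markers reached 0.476 CPM in E591 beside 0, a level of 1 count.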

How the results depend on the processing

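The fit without the replicate block called 0 genes between groups, with 257 at an unadjusted p under 0.05, beside 1 in the paired fit, and it changed no call for a member. Between groups the count was 10 with no filter on low counts, 26 with DESeq2, 19 with limma-voom and 0 among genes with 1 curated transcript alone. Leaving out a pair, or a single library together with the block, gave 0 to 2 (2 without E606 and N606). Members called between groups numbered 0 under every alternative run. Between pairs, 233 genes became 350 with no filter, 442 with DESeq2 and 146 to 179 when a pair was left out, and the 2 members became 0 to 2 with a pair left out and 3 with DESeq2.

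The log2 fold change of a member reversed in 18 of 195, in each of them with a pair left out, or with a library left out and no block in the fit, and with no call on either side. The ranges over all fits with a pair or a library left out were -0.0062 to 0.0541 for Adgre1, -0.0477 to 0.0792 for Lyz2, -0.4582 to 0.0925 for Ptprc, -0.1478 to 0.1041 for Gpr34 and -0.1163 to 0.0756 for P2ry6. Csf1r (0.05 to 0.12), Cx3cr1 (0.01 to 0.24), Aif1 (0.05 to 0.27) and Tyrobp (0.05 to 0.19) did not reverse, though their sizes moved by over 1.5 times. The cause was not tested. Trem2 and Ptprc had the fewest counts, 4 and 369 in all.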
